A study of Rattus norvegicus with 8 samples.

Results

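The growth hormone and insulin-like growth factor (IGF) axis was examined in the kidney through 10 genes, chosen by name. They were the ligand gene Igf1, the receptor genes Ghr, Igf1r and Igf2r, the binding protein genes Igfbp1, Igfbp2, Igfbp3, Igfbp4 and Igfbp5, and the feedback inhibitor gene Socs2. All 10 had a probe on the array, 16 probes in all, out of 14400 genes that could be named there. The samples were right kidneys of male rats of the inbred strain F344/NSlc, 10 weeks old. In 4 rats the other kidney had been removed (nephrectomized), so that the right one was residual, and 4 rats had a sham operation. The source label places sampling at day 2 for nephrectomized and day 1 for sham rats, whereas the series text gives 2 days, so a difference of sampling day and the loss of a kidney cannot be told apart here. Whole kidney RNA was measured, so that fewer cells of a type and less RNA per cell cannot be told apart either.

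Growth hormone from the pituitary binds its receptor Ghr, which signals through the kinase Jak2 and the transcription factor Stat5 and induces Igf1 and, as a brake, Socs2. Igf1 is made mostly by the liver and also locally in the kidney, and acts on the tyrosine kinase receptor Igf1r. The binding proteins hold IGF in blood and tissue and set how much of it reaches the receptor. In the kidney the axis is known for effects on filtration and on growth after loss of the partner organ.

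Each rat had its own 1-colour array, and values are log2 intensities relative to the array's 75th percentile, so that 0 is the level of that percentile and a step of 1 is a doubling. Each is a level relative to the rest of that sample's mRNA. No gene spot was saturated, and 54.8% to 65.5% of the 41012 gene probes were well above background, the lowest share being that of sham rat 1. Across the probes fitted, pairs of arrays correlated at 0.983 to 0.996 (probes are not independent replicates). Nephrectomized and sham rats 1 and 2 lay on slide 1 and rats 3 and 4 on slide 2. Levels of different probes are not compared as amounts of RNA, since probes differ in brightness.

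None of the 9 genes that could be fitted passed the test for a difference between nephrectomized and sham kidneys. Of their 15 probes, 0 reached the threshold of 0.05 (p from limma, adjusted after Benjamini-Hochberg over 23982 probes). Of all probes fitted 3.24% did so, 2.34% higher and 0.901% lower after nephrectomy. At an unadjusted p under 0.05 there were 4 member probes, against 17.0% of all probes. Those 4 were the probes of Igfbp3 and Igfbp4, both genes encoding proteins that bind IGF, and all 4 had negative estimates, that is lower levels in nephrectomized rats, as 7.46% of all probes had at that unadjusted level. The member probes' median log2 fold change was -0.072, beside -0.0039 over all probes, and the median of its absolute size was 0.13, beside 0.10 over all probes. With limma's array weights, 4 member probes passed, those of Igfbp3, 1 of Igfbp4 and that of Igfbp5, where 11.6% of all probes did, 6.42% higher and 5.17% lower.

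**Figure D1:**
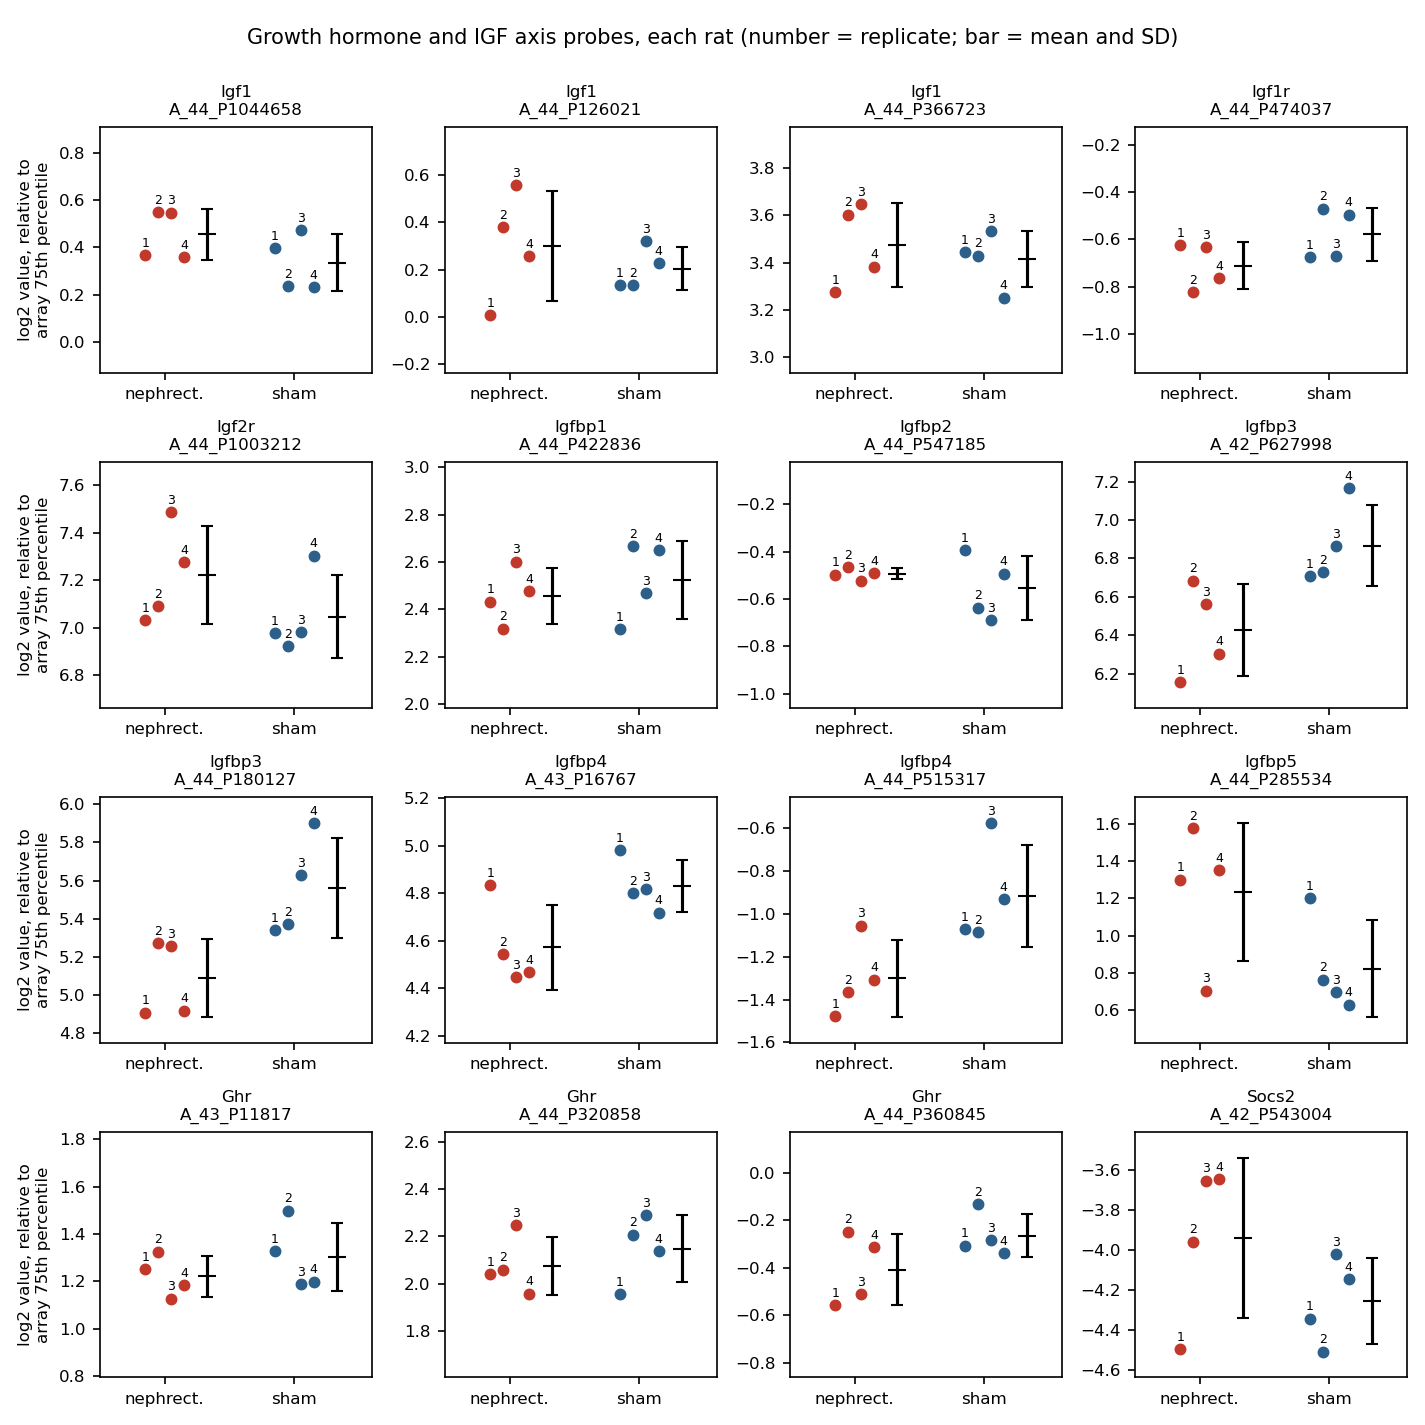
Log2 values relative to the array's 75th percentile for the 16 member probes, 1 panel per probe, in nephrectomized (left) and sham (right) rats, with replicate numbers and the mean ± SD of each group of 4 rats. The groups are apart without overlap in the 2 Igfbp3 panels and overlap in the other 14.

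Igf1, which encodes the ligand, was measured by 3 probes, each annotated with a RefSeq transcript of its own. The brightest, A_44_P366723, gave log2 values of 3.27, 3.60, 3.64 and 3.38 in nephrectomized rats 1 to 4, against 3.44, 3.43, 3.53 and 3.25 in sham rats 1 to 4. Nephrectomized rat 1 was the second lowest of the 8, and the groups overlapped. The log2 fold change was 0.061 (SE 0.10), which corresponds to 1.04-fold with a 95% interval of 0.888 to 1.23 (limma adjusted p = 0.824). A_44_P1044658 gave a log2 fold change of 0.12 (95% interval -0.070 to 0.31) and A_44_P126021 one of 0.095 (95% interval -0.17 to 0.36). All 3 estimates were positive, and the highest upper bound of their intervals was 1.28-fold. Without nephrectomized rat 3 they were 0.090, 0.0092 and 0.0044 for A_44_P1044658, A_44_P126021 and A_44_P366723.

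None of the receptor genes passed. Ghr, the growth hormone receptor, was measured by 3 probes, with log2 fold changes of -0.082, -0.072 and -0.14 and adjusted p between 0.474 and 0.759. Its probe A_44_P320858 averaged 2.08 ± 0.12 in nephrectomized and 2.15 ± 0.14 in sham rats (log2 value, SD, n = 4 each). The lowest bound of the 3 intervals was 0.787-fold.

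Igf1r, the tyrosine kinase through which Igf1 acts, had log2 values of -0.62, -0.82, -0.63 and -0.76 in nephrectomized rats and -0.68, -0.47, -0.67 and -0.50 in sham rats. Sham rats 2 and 4 lay above all others, and the remaining 2 sham rats lay among the nephrectomized rats. The log2 fold change was -0.13 (SE 0.079, adjusted p = 0.457), or 0.912-fold with a 95% interval of 0.805 to 1.03. This probe was spotted 10 times on each array. The SD between its single spots on an array was 0.039 to 0.11 on the log2 scale. Between rats the SD was 0.098 in nephrectomized and 0.11 in sham rats. Each rat's value is the mean of 9 to 10 spots, so its spot error is smaller than the SD between single spots.

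Igf2r, which clears Igf2 from the cell surface and sorts lysosomal enzymes, gave 7.03, 7.09, 7.49 and 7.28 in nephrectomized rats, against 6.98, 6.92, 6.98 and 7.30 in sham rats. Sham rat 4 stood apart from the other sham rats and above 3 of the 4 nephrectomized rats. Igf2r had a log2 fold change of 0.18 (SE 0.12, adjusted p = 0.532), and 0.26 without sham rat 4 (adjusted p = 0.356). Without nephrectomized rat 3, the highest of the 8, it was 0.087 (adjusted p = 0.712).

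Igfbp3 encodes the binding protein that carries most Igf1 in blood, and its 2 probes were the only members without overlap between the groups. Probe A_44_P180127, which was also spotted 10 times per array, gave log2 values of 4.91, 5.27, 5.26 and 4.92 in nephrectomized rats, against 5.34, 5.37, 5.63 and 5.90 in sham rats. Every nephrectomized rat was below every sham rat, and sham rat 4 was the highest. The log2 fold change was -0.47 (SE 0.15), or 0.720-fold with a 95% interval of 0.570 to 0.910, and it did not pass (adjusted p = 0.141, limma). Probe A_42_P627998 gave 6.16, 6.68, 6.56 and 6.30 in nephrectomized rats, against 6.71, 6.73, 6.86 and 7.17 in sham rats. Its log2 fold change was -0.44 (SE 0.14, adjusted p = 0.158). Over the 8 arrays the 2 probes correlated at a Pearson r of 0.980, as 2 measures of the same RNA samples. Of all probes fitted, 4.92% were lower in every nephrectomized rat than in every sham rat, and 12.2% were apart in either direction.

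Spot noise was smaller than the spread between rats for Igfbp3. The SD between the 10 spots of A_44_P180127 on an array was 0.023 to 0.092 on the log2 scale, against 0.20 between nephrectomized and 0.26 between sham rats. That probe's log2 fold change was -0.27 within slide 1 and -0.68 within slide 2, and that of A_42_P627998 was -0.30 and -0.58. Both were negative within both slides. Without sham rat 1, the array with the fewest probes above background, the values were -0.55 and -0.49 (adjusted p = 0.12 and 0.154).

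**Figure D2:**
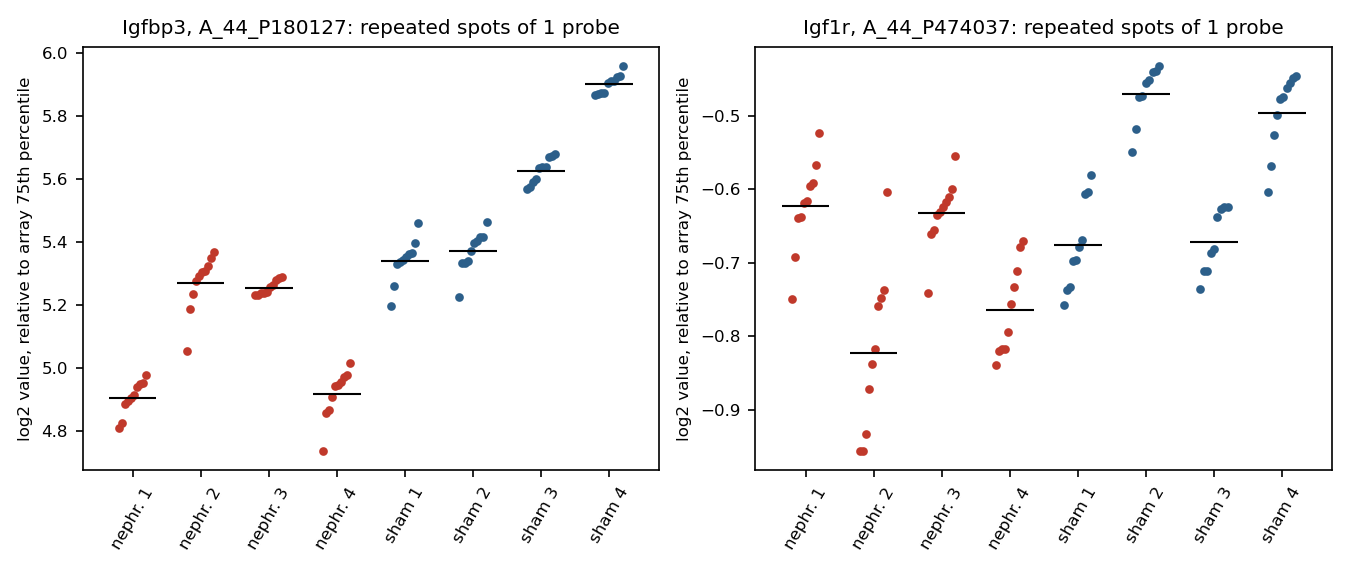
Log2 values of the single spots of the Igfbp3 probe A_44_P180127 (left) and the Igf1r probe A_44_P474037 (right), each spotted 10 times per array, with nephrectomized rats left of sham rats, with the mean of the spots on each array as a line. The Igfbp3 means lie at 4.91 to 5.27 in nephrectomized and 5.34 to 5.90 in sham rats, and the Igf1r means overlap.

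Igfbp4, whose product mostly restrains IGF until a protease cuts it, had 2 probes that both gave negative estimates. Probe A_43_P16767 read 4.83, 4.54, 4.45 and 4.47 in nephrectomized rats, against 4.98, 4.80, 4.82 and 4.72 in sham rats. Nephrectomized rats 2 to 4 were below all sham rats, and nephrectomized rat 1 lay among them. Its log2 fold change was -0.26 (SE 0.10, adjusted p = 0.240), or 0.837-fold. The dimmer probe A_44_P515317 read -1.48, -1.37, -1.06 and -1.31 in nephrectomized rats, against -1.07, -1.08, -0.58 and -0.93 in sham rats, with only nephrectomized rat 3 within the sham range. Its log2 fold change was -0.38 (SE 0.13, adjusted p = 0.185), or 0.766-fold. The 2 probes ordered the nephrectomized rats differently. Rat 1 was the highest of that group on the first probe and the lowest on the second, and rat 3 the reverse. Within slides 1 and 2 the first probe gave -0.20 and -0.31 and the second -0.34 and -0.43.

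Igfbp5, which binds IGF in the extracellular matrix, had the largest positive estimate among the 9 genes fitted. It read 1.30, 1.58, 0.71 and 1.35 in nephrectomized rats, against 1.20, 0.77, 0.70 and 0.63 in sham rats. Nephrectomized rats 1, 2 and 4 were above all sham rats, while nephrectomized rat 3 was at the level of sham rats 2 to 4. The log2 fold change was 0.41 (SE 0.20), or 1.33-fold with a 95% interval of 0.974 to 1.81 (adjusted p = 0.341). Without nephrectomized rat 3 it was 0.59 (adjusted p = 0.0913), and without sham rat 1 it was 0.54 (adjusted p = 0.193).

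Igfbp1 and Igfbp2 showed small estimates. Igfbp1 is a binding protein gene that insulin represses and fasting and glucocorticoids induce in liver. It read 2.43, 2.32, 2.60 and 2.48 in nephrectomized rats, against 2.32, 2.67, 2.47 and 2.65 in sham rats, a log2 fold change of -0.067 (SE 0.098, adjusted p = 0.795). Igfbp2 averaged -0.49 ± 0.023 in nephrectomized and -0.55 ± 0.13 in sham rats (log2 value, SD, n = 4 each), a log2 fold change of 0.059 (SE 0.075, adjusted p = 0.759). The groups overlapped for both genes. In the RefSeq annotation of the GRCr8 build, Igfbp1 neighbours Igfbp3 on chromosome 14 and Igfbp2 neighbours Igfbp5 on chromosome 9. In each pair one neighbour had an estimate over 0.4 in size and the other one under 0.1.

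**Figure D3:**
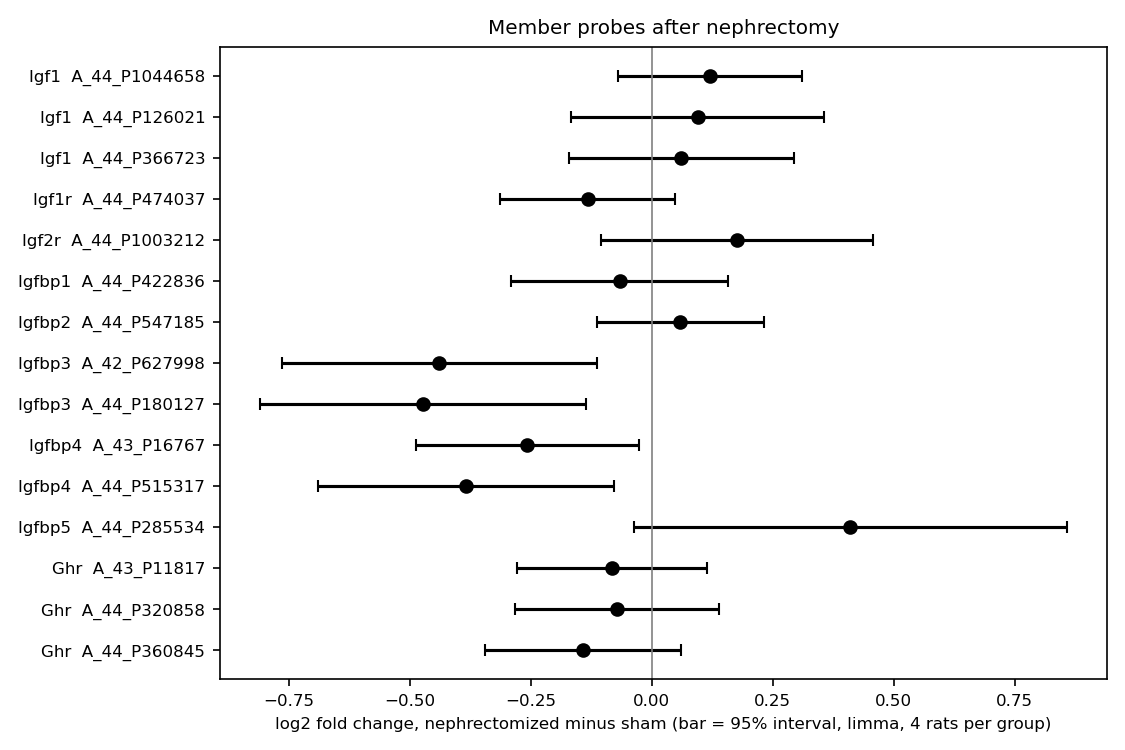
Log2 fold change, nephrectomized minus sham, of the 15 member probes fitted, with 95% intervals from limma (4 rats per group). The intervals of the Igfbp3 and Igfbp4 probes lie below 0 before adjustment for multiple tests, and the others include 0.

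The start regions of Igfbp3 and Igfbp4, the genes with the lowest unadjusted p, and of Igfbp1, which had a small estimate and whose promoter is the textbook case of insulin control, are shown to set these genes' regulatory sequence beside their values. They are RefSeq sequences of the GRCr8 build, 250 bases before to 50 bases after each gene's start, written 5′ to 3′ along the gene: chr14:86277895-86278194 (minus strand) for Igfbp3, chr10:84491221-84491520 (plus strand) for Igfbp4 and chr14:86261027-86261326 (plus strand) for Igfbp1. Capitals mark the matches to the motifs described next.
Igfbp3: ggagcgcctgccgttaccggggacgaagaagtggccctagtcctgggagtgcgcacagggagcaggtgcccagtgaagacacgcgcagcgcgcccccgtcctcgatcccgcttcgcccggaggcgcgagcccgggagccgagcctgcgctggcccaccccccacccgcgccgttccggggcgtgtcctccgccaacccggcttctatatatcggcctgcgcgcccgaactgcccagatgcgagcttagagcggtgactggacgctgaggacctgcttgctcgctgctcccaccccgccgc
Igfbp4: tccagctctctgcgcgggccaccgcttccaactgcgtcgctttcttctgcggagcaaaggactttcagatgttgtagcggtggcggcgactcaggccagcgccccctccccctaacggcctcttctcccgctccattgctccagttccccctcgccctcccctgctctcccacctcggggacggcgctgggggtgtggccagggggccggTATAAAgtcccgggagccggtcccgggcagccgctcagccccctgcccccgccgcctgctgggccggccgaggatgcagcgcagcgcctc
Igfbp1: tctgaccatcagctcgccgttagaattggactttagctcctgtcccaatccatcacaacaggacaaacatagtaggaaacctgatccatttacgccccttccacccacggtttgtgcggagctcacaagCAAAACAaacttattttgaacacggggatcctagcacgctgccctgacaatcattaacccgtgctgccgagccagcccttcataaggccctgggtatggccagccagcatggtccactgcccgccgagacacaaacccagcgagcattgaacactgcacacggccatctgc
Such a region was held for 9 of the 10 genes. Searched on both strands, 0 of the 9 had the Stat5-type element TTCNNNGAA, which 8.87% of all 33469 promoters of that length had, and 0 had the forkhead element GTAAACA, which 3.78% had. The core of the insulin response element, CAAAACA, was found in Igfbp1, 121 bases before the start, and in Igf1, against 6.28% of all promoters. TATAAA was found in Igfbp4, 40 bases before the start, against 14.2%. The last 2 motifs were added after the sequences were seen, none of the 4 overlapped another in these genes, and no match says only that the letters are not in the window.

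Socs2, the growth hormone-induced inhibitor of the receptor's signal, was near background and was not fitted. The probe stood well above background in 2 of 4 nephrectomized and in 1 of 4 sham rats. It read -4.50, -3.96, -3.65 and -3.65 in nephrectomized rats, against -4.34, -4.51, -4.02 and -4.15 in sham rats. The 3 highest values were those of nephrectomized rats and the groups overlapped. Without the filter on dim probes its log2 fold change was 0.32 (limma adjusted p = 0.731).

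The rest of the pathway was described through 58 further genes in 7 lists by role. Of these, 53 had a named probe and 43 had a probe that could be fitted, 57 probes in all. Among the 57 probes, 1 passed and was lower after nephrectomy, or 1.75% of them, against 3.24% of all probes. Their median log2 fold change was -0.041. Igfbp7, Pappa, Pappa2, Socs7 and Grb10 were not matched to a probe by name and were not analysed here.

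That probe belonged to Cyp2c11, a cytochrome P450 which in rat liver follows the pulsed growth hormone secretion of males. It read 0.83, -0.08, 0.08 and -1.28 in nephrectomized rats, against 2.08, 2.86, 2.80 and 2.51 in sham rats. Every nephrectomized rat was below every sham rat, and nephrectomized rat 4 was lowest. Its log2 fold change was -2.67 with an SE of 0.40 and passed (limma adjusted p = 0.00947), and it was -2.09 within slide 1 and -3.25 within slide 2. The call was lost with the replicate number as a block (-2.67, adjusted p = 0.0548) and within each slide of 2 against 2 rats (adjusted p = 0.313 and 0.104). Cyp4a2, of the same list, gave -0.63 without passing (adjusted p = 0.261). The list's 5 fitted probes had a median of -0.041, and Cyp2c12, which rat liver makes in females, was well above background in none of the 8 rats.

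In the other 6 lists no probe described here passed. Among 5 genes of growth hormone receptor signalling with 6 fitted probes, whose median was -0.10, Stat5a gave -0.33 (adjusted p = 0.242) and Stat5b, named after its value was seen, -0.23 (adjusted p = 0.281). Both carry the signal of the receptor to its target genes. Stat5a gave -0.10 within slide 1 and -0.56 within slide 2, and Stat5b gave -0.047 with normexp. Igfals encodes the acid-labile subunit, which joins Igf1 and Igfbp3 in the circulating complex. It read 0.21, 0.22, 0.42 and 0.41 in nephrectomized rats, against 0.13, -0.10, -0.15 and 0.03 in sham rats, without overlap (log2 fold change 0.34, SE 0.087, adjusted p = 0.0886). Igfals and Igfbp3 thus had estimates of opposite sign, and neither passed. With array weights, Igfals, Stat5a, Stat5b, Prlr and Cyp4a2 passed beside Cyp2c11 (adjusted p = 0.0162, 0.0318, 0.0424, 0.0334 and 0.0326 for the first 5). These were 6 of the 57 pathway probes, where 11.6% of all probes passed with array weights. Igfbp6, a binding protein with a preference for Igf2, had -0.33 (adjusted p = 0.485), and the 4 fitted probes of this binding and release list had a median of -0.15.

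Among 5 hormones and ligands, Ghrh, the growth hormone-releasing hormone, had -0.47 (adjusted p = 0.188) and -0.078 with normexp background correction (adjusted p = 0.682), and Igf2 had 0.10 (adjusted p = 0.721). The Ghrh probe was dim, with mean log2 values of -3.71 in nephrectomized and -3.24 in sham rats. Another Ghrh probe was well above background in no rat of either group and was not fitted. Of 5 other receptors, the prolactin receptor Prlr had -0.51 (adjusted p = 0.260) and the insulin receptor Insr -0.10 (adjusted p = 0.790). The 8 feedback inhibitor probes had a median of -0.045. In that list the tyrosine phosphatase Ptpn1 had -0.23 (adjusted p = 0.598) and the adaptor Grb14 -0.090 (adjusted p = 0.692). Cish, a Stat5 target like Socs2 and named after its value was seen, had 0.27 (adjusted p = 0.699), with 0.71 within slide 1 and -0.17 within slide 2. The 27 probes of IGF and insulin receptor signalling had a median of -0.011 and a range of -0.28 to 0.15. Pik3r1, a regulatory subunit of PI3-kinase, had -0.15, -0.19 and -0.13 on its fitted probes (limma adjusted p = 0.287, 0.545 and 0.654). The docking protein Irs2 had -0.28 on its fitted probe (adjusted p = 0.451), and its other probes did not reach the filter.

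**Figure D4:**
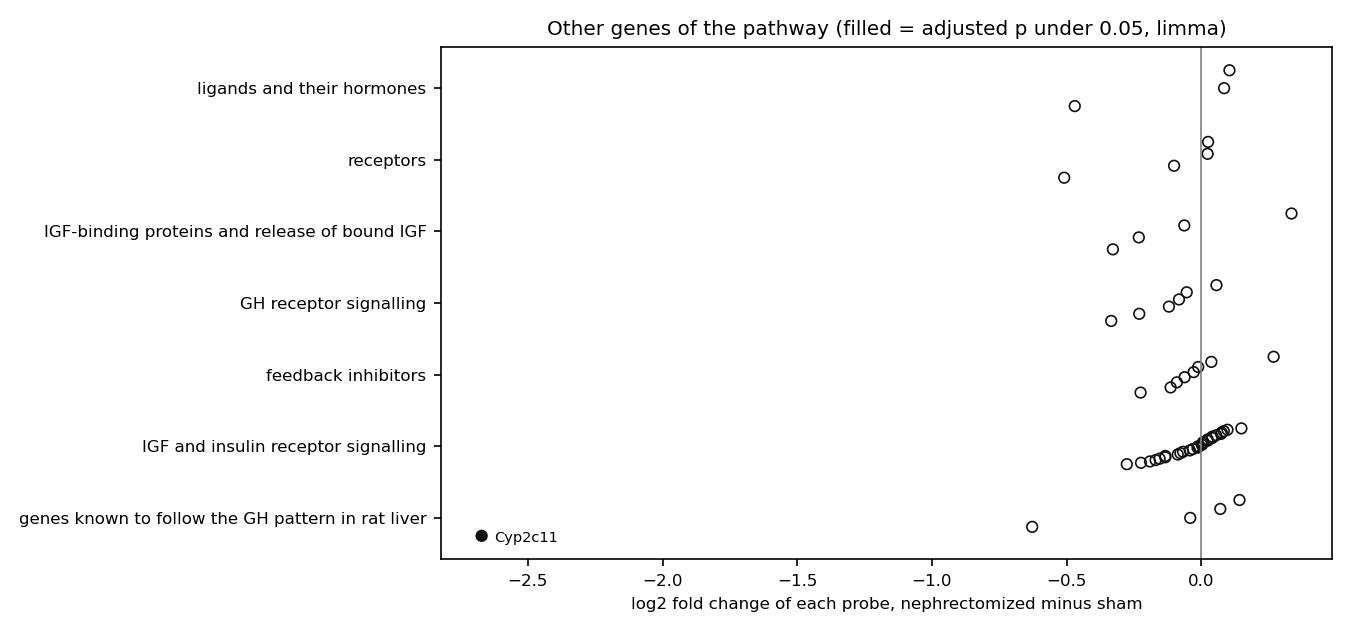
Log2 fold change, nephrectomized minus sham, of 57 fitted probes of the 7 pathway lists, 1 circle per probe and 1 row per list, filled where the limma adjusted p was under 0.05. Cyp2c11 has the 1 filled circle, and most of the others lie within 0.3 of 0.

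Cell type markers were set beside these values, and all 7 proximal tubule and all 4 thick ascending limb genes listed reached the filter. No marker probe of the kidney cell types passed, and the median log2 fold changes of the lists were -0.057 for proximal tubule (8 probes), -0.049 for thick ascending limb (4), 0.019 for principal cells (4) and 0.078 for endothelium (4). They were -0.022 for fibroblasts and pericytes (6), 0.040 for podocytes (5), -0.051 for leukocytes (4) and -0.44 for adipocytes (2, Cidec at -0.78 and Adipoq at -0.11). For intercalated cells (4) the median was -0.023 and for smooth muscle (3) 0.031, and the 1 distal convoluted tubule probe gave -0.030. Of the 4 thick ascending limb probes 2 were negative and 2 positive. Among them Cldn10 had -0.27 without overlap between groups, as 12.2% of all probes had none (limma adjusted p = 0.186). The summed linear level of the 4 endothelial probes was 26.2 to 28.1 in nephrectomized and 21.4 to 27.6 in sham rats. Most of this sum was the Kdr probe, with mean log2 values of 4.60 in nephrectomized and 4.38 in sham rats. The next brightest, Emcn, averaged 1.36 and 1.30, so the sum says little about the other endothelial genes. In the endothelial list Pecam1 had -0.33 and Kdr 0.22, neither passing (adjusted p = 0.257 and 0.277). In the fibroblast and pericyte list the 2 collagen probes of Col1a1 had 0.29 and 0.24 and Dcn, a matrix proteoglycan, -0.38, none passing. In the podocyte list Nphs1 had 1.08 (adjusted p = 0.654), with sham rat 3 at a log2 value of -3.33 and the other 7 rats between 1.17 and 1.68. Of 5 hepatocyte and 4 adrenal cortex markers on the array none reached the filter. The part of cell composition in the Igfbp values was not tested.

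Among 9326 other genes with a symbol whose probe was well above background on all 8 arrays, those whose values most resembled the Igfbp3 probe A_44_P180127 included Tti2, Znhit2, Cacnb4 and Nr1d1 (Pearson r over 8 arrays 0.997, 0.985, 0.977 and 0.970). These are the highest of many correlations over the same 8 arrays, and the arrays share the group difference and the scaling. Nr1d1, a repressor of the circadian clock, differed by -0.45 in log2 units (adjusted p = 0.0933), and Tti2 by -0.12 (adjusted p = 0.383). Among the other member probes, r with this Igfbp3 probe was 0.772 for A_44_P515317 of Igfbp4, 0.265 for the other Igfbp4 probe, A_43_P16767, and -0.690 for Igfbp5.

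**Figure D5:**
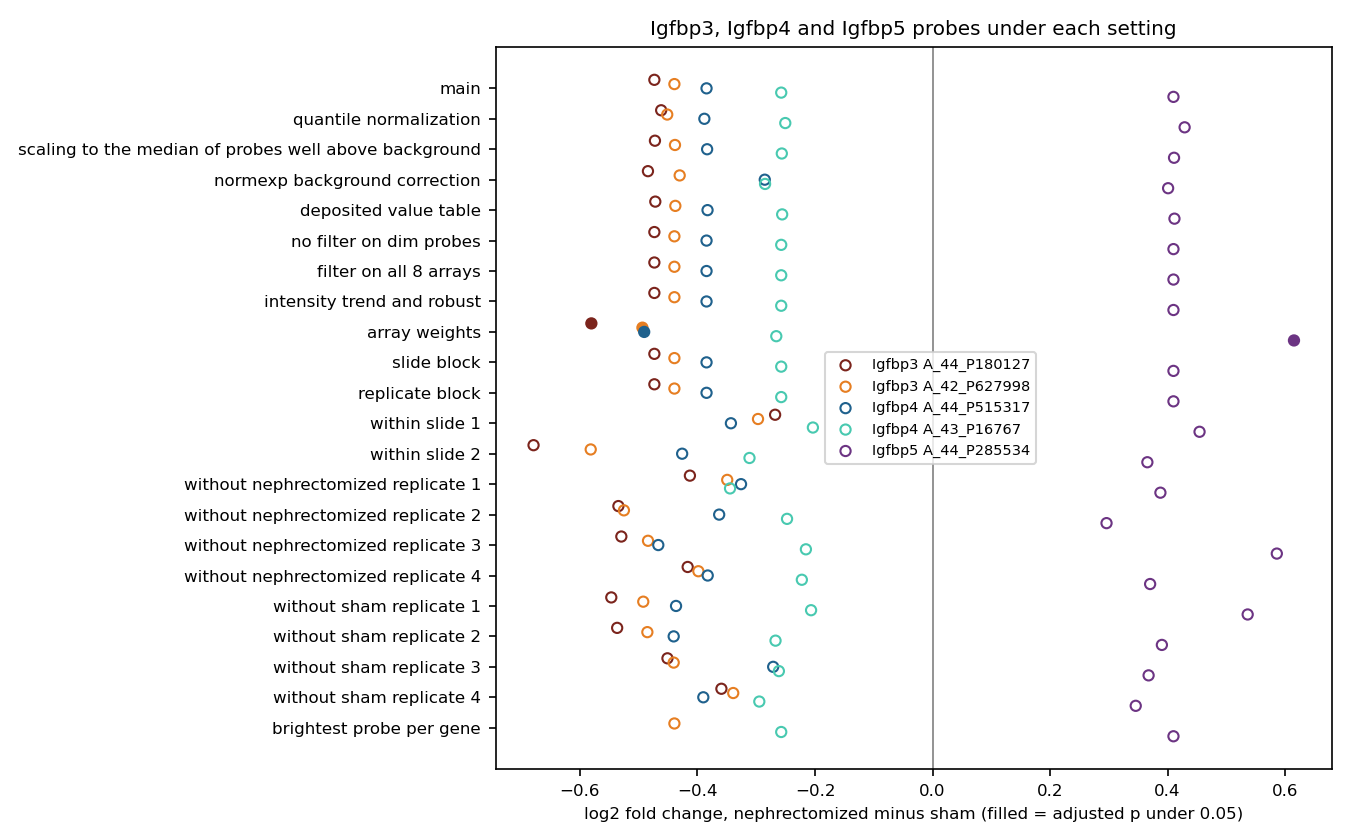
Log2 fold change, nephrectomized minus sham, of the 5 probes of Igfbp3, Igfbp4 and Igfbp5 under each setting of the processing, filled where the adjusted p was under 0.05. The Igfbp3 and Igfbp4 probes stay below 0 and Igfbp5 above 0 in every row, and only the row with array weights has filled circles. The rows for other filters, brightest probe, trend and blocks repeat the main estimates.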

How the data were processed

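Total RNA (RNeasy Mini Kit) was labelled with Cy3 by a Low Input Quick Amp kit and, per the labels' protocols, hybridised to Agilent arrays of design 014879. The deposited files hold each spot's intensity on a linear scale, background-subtracted and detrended by Feature Extraction 10.5.1.1 (protocol GE1_105_Dec08) and not normalized between arrays, per the file headers. A deposited series table, used as an alternative, holds log2 values on which each probe's median over arrays is 0 (r = 0.9999 with values so centred here, column medians -0.017 to 0.015); the sources used here do not give its choice of probes.

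Log2 processed intensities were averaged over a probe's spots without controls and outlier spots, and the array's 75th percentile over gene probes was subtracted. A probe was well above background where at least 0.5 of its spots were. Where this held throughout at least 1 group the probe was fitted (23982 of 41012) with limma 3.58.1 in R 4.3.3, without covariates, two-sided. Files have no gene name column, so 18713 probes were named by RefSeq accession through the GRCr8 gene table. The array's annotation build is rn4, so apart from the RefSeq promoters no coordinates are given.

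The labels call the samples replicates 1 to 4 of each group. The p-values set the group difference against the spread between these samples, which limma moderates over all probes fitted. The members and lists were chosen with earlier results of these data known. All member probes are given. Of the lists, genes past the threshold and the 2 with the smallest p per list are named, and the 5 genes most correlated with the member probe of smallest p. A gene of the lists and a correlated gene are not reported here, and counts over the lists leave the first out.

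The alternatives were quantile normalization, scaling to the median of detected probes, normexp (offset 50, on median spot intensity, as no mean was in the files), the deposited table, 2 other filters, the brightest probe per gene, robust estimation with an intensity trend, array weights, slide or replicate number as a block, each slide alone, each rat left out and a threshold of 0.01.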

Additional observations from a re-analysis of the deposited data

Results flagged for a closer look

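For 31 probes, the 16 member probes and 15 pathway probes named, 62 groups of 4 rats were examined. In 3 of these groups, 1 rat was farther from the others than Dixon's 95% critical value for 4 allows. Chance alone flags about 1 group in 20. Marker probes, that of Nphs1 included, and the correlated genes were not examined in this way. For Igf2r, sham rat 4 was the highest of its group at a log2 value of 7.30, with the other sham rats at 6.92 to 6.98. For Ghrh, nephrectomized rat 2 was the lowest at -4.16, with the others at -3.61 to -3.50. For Irs2, nephrectomized rat 1 was the lowest at -0.24, with the others at 0.22 to 0.25.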

How the results depend on the processing

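Under 21 of the 22 alternatives, leaving out each rat included, limma called 0 member probes, with 1 to 5 at an unadjusted p under 0.05. For the threshold of 0.01 this was fixed in advance, since 0 passed at 0.05 in the same fit. The unadjusted count of 1 was within slide 1, where 1895 of all 23982 probes had such a p. The count of 5 was with normexp and with slide as a block, where 3868 and 4402 of all probes had it. The exception to 0 calls was array weights, which called 4 member probes of 15 (7 unadjusted). With array weights 2781 of all 23982 probes were called (7070 unadjusted). These weights were 0.398 for nephrectomized rat 3 and 0.410 for sham rat 1, the lowest, and 2.55 for nephrectomized rat 4, the highest. With them the log2 fold changes of the called probes were -0.58 and -0.49 for Igfbp3, -0.49 for Igfbp4 and 0.62 for Igfbp5 (adjusted p = 0.0302, 0.0465, 0.0389 and 0.0247), and over all their alternatives the adjusted p of these 4 probes lay between 0.0247 and 0.802. No member's estimate changed sign in 309 values. Some of these values could not differ from the main ones. The 2 other filters, the brightest probe per gene, robust estimation with a trend and the blocks repeat the members' main estimates. Without any single rat the estimates ranged from -0.55 to -0.36 and -0.53 to -0.34 for Igfbp3, and from 0.30 to 0.59 for Igfbp5. Of the other pathway probes, 1 was called, that of Cyp2c11, and 1 without any single rat. With array weights 6 of 57 were called, where 11.6% of all probes were. With replicate number as a block 0 were called (6 unadjusted, 4350 of all 23982 probes). Within slide 1 the count was 0 (2 unadjusted, 1895 of all probes), and within slide 2 it was 0 (7 unadjusted, 2845 of all probes). Same-numbered rats did not all deviate together (r = 0.111, 0.018, 0.102 and -0.022 across probes), nor did each rat correlate best with its own number, so the numbers were not taken as pairs. Of the 15 pathway probes recomputed singly, estimates that changed sign, none of them called, were Grb14 with normexp (0.063), Cish within slide 2 (-0.17), Igf2 without nephrectomized rat 1 (-0.0047, and up to 0.18 without other single rats), and Insr with array weights (0.064) and without nephrectomized rat 3 (0.0078, and down to -0.18 without others). Of all probes, 777 were called, against 333 without the filter, 2781 with array weights, 327 with the replicate block, 0 within slide 1 (1895 unadjusted), 151 within slide 2, 298 at 0.01 and 388 to 713 without single rats (388, 433 and 483 without sham rats 3, 2 and 4, 391 and 512 without nephrectomized rats 4 and 2). The cause of these changes was not tested. The 4 rats per group, and for Socs2 a signal near background, limit the precision.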
